A study of Mus musculus with 12 samples.

Results

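The clustered protocadherins are cell-surface adhesion proteins of neurons, encoded by 3 gene clusters (alpha, beta and gamma) that lie one after the other on mouse chromosome 18. Members were all genes whose name begins with Pcdha, with Pcdhb and a digit, or with Pcdhg, which gave 59 genes of the 48526 in the tables: 14 alpha, 22 beta and 23 gamma. The rule used gene names only, but it was set with earlier results of these data known. Their RNA was measured in 12 libraries from the cortex of untreated C57Bl/6 mice.

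In the alpha and gamma clusters each variable first exon has a promoter of its own and encodes the whole extracellular part, and it is spliced to a few constant exons that encode a common cytoplasmic end. A beta gene has a variable exon only. A single neuron expresses a small set of the alternate members, chosen at random in each chromosome copy, while the C-type members (Pcdhac1, Pcdhac2, Pcdhgc3, Pcdhgc4 and Pcdhgc5) follow cell type instead. Proteins of the 3 clusters assemble into complexes that bind only matching complexes on another membrane, which is how a neuron tells its own branches from those of its neighbours. In the cortex they are known for roles in dendrite branching, axon spacing and the survival of interneurons.

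The 4 groups combined an age of 3 or 10 months with the label transgenic (TAU58/2) or non-transgenic control, with 3 libraries each. TAU58/2 mice carry human tau with the P301S mutation under the neuronal Thy1 promoter, so that the transgene is driven in neurons. The comparison asks whether any of these adhesion genes change with the transgene at either age. Levels are FPKM, fragment numbers scaled to the depth of the library and to transcript length. The libraries summed to 125933 to 158077 FPKM, and their absolute depth is unknown. The labels number the libraries 1 to 3 within a group and do not say that each came from a separate animal, so p-values measure only the spread between these libraries, which may be technical.

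The labels were checked on Mapt, which encodes tau, and on Thy1, the source of the promoter. At 3 months both were higher in each library labelled transgenic (Mapt 43.3 to 47.6 FPKM, Thy1 410 to 441 FPKM) than in any control (Mapt 6.64 to 12.0, Thy1 105 to 140). At 10 months they did not follow the labels. Transgenic libraries 1, 2 and 3 held Mapt at 42.6, 12.4 and 3.31 FPKM, the controls at 42.7, 8.13 and 9.08, and Thy1 was 172, 114 and 159 against 115, 314 and 176. Every direction given at 10 months therefore rests on the labels alone. Neuron markers were high in all libraries, with sums over 10 markers of 916 to 2291 FPKM, and cortex markers summed to 10.5 to 70.8 FPKM over 8 genes. Of the markers of other tissue, Ttr of the choroid plexus reached 728 FPKM in 3-month control 1, 300.4 in 3-month transgenic 3 and 439 in 10-month transgenic 1, against at most 63.5 elsewhere. Summed over the 5 choroid plexus markers, of which 1 passed the filter on low values, the groups ranged over 5.24 to 732 FPKM (3-month control), 5.30 to 303 (3-month transgenic), 15.1 to 32.4 (10-month control) and 30.4 to 442 (10-month transgenic). The pituitary hormone gene Gh stood at 11228 FPKM in 10-month transgenic 1 and at most 37.4 in the other libraries, and the 6 pituitary markers summed to at most 53.8 FPKM outside that library. 10-month transgenic 3 had the most genes far under their usual level, with 226 of 4390 well-expressed genes below an eighth of their median, against 91 to 136 in the other libraries.

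On GRCm38, in the GENCODE annotation, the alpha cluster spans chr18:36930184-37187661, the beta cluster chr18:37264938-37524479 and the gamma cluster chr18:37661793-37841873, all on the plus strand. All 14 alpha members end on the same constant exons, of 59, 89 and 2712 bases, and the 22 located gamma members on constant exons of 59, 89 and up to 1971 bases. As a result a median of 53.4% of the exon bases of an alpha member and 44.7% of those of a gamma member belong to another member too, against 0% for the beta cluster. Counted as stretches of 31 bases found in another member, the shared part was a median of 62.3% for alpha, 46.0% for gamma and 11.8% for beta. How reads from the shared exons were divided among members is not given in the sources used here, so the level of a single alpha or gamma member is uncertain to that extent. The beta members have no common exon of this kind, and 18 of the 22 have the same single exon in all their annotated transcripts.

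Some names in the tables had to be settled by gene ID. The ID ENSMUSG00000007440 carries the name Pcdha11 in the tables but lies where RefSeq places Pcdha10, and is called Pcdha10 here. ENSMUSG00000102206 is then the only Pcdha11. ENSMUSG00000023036, named Pcdhga8 in the tables, is Pcdhgc4 in both annotations and is called so here, and Pcdhgb8 has a second ID with no location. The readthrough genes of the locus, Gm42416, Gm37013 and Gm37388, were listed at 0 in all 12 libraries. BC037039, which overlaps Pcdhgc3 on the other strand, stayed at or below 0.488 FPKM, and Gm38182, which lies on the same strand at the gamma constant exons, at or below 0.635 FPKM.

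**Figure D1:**
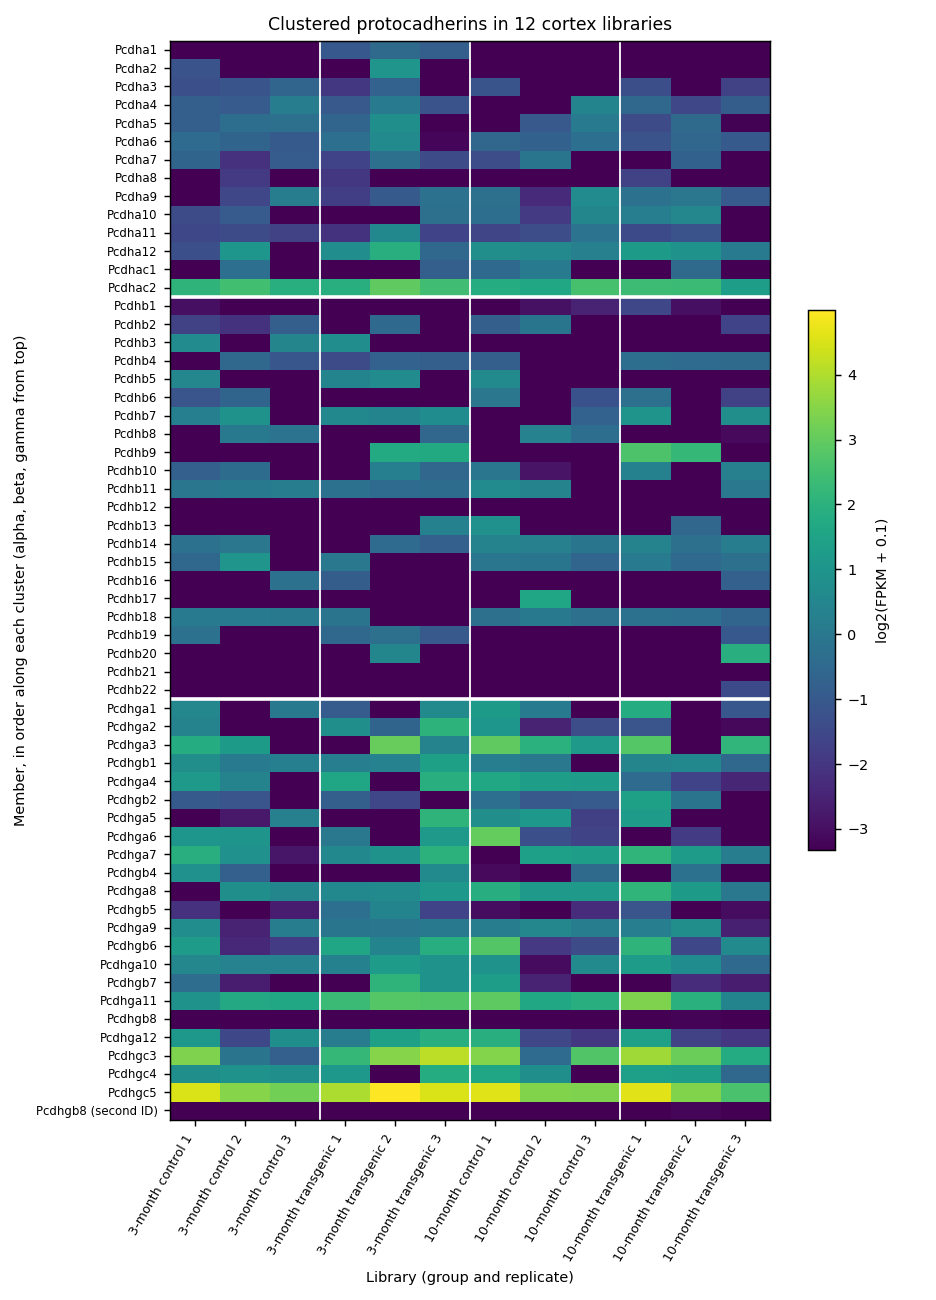
The 59 members (vertical, in order along the alpha, beta and gamma clusters) in the 12 libraries (horizontal, by group), coloured by log2(FPKM + 0.1). Pcdhgc5, Pcdhgc3 and Pcdhac2, near the ends of the gamma and alpha clusters, are the brightest lines, and the dark cells of the beta cluster are values listed at 0.

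Levels differed widely between the clusters. The median over members of the mean level in 12 libraries was 0.435 FPKM for alpha, 0.357 FPKM for beta and 1.31 FPKM for gamma. The highest mean in each cluster was 4.56 FPKM (Pcdhac2), 1.45 FPKM (Pcdhb9) and 16.6 FPKM (Pcdhgc5). Few members were found everywhere: 2 alpha, 0 beta and 7 gamma members were above 0 in all 12 libraries. Pcdhb12 and Pcdhb21 were listed at 0 in all 12, and 4 alpha, 14 beta and 3 gamma members were at 0 in 6 or more. In a single library 2 to 7 of the 14 alpha members, 8 to 15 of the 22 beta members and 3 to 9 of the 23 gamma members were listed at 0.

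A value of exactly 0 in these tables need not mean that a gene was silent. Pcdh9, a protocadherin gene outside the clusters, was listed at 0 in 10-month transgenic 2 and 3 and at 9.95 to 14.0 FPKM in the other 10 libraries. Among all 9846 genes with a group mean of at least 1 FPKM, 25.5% were at 0 in at least 1 library. Of the 25 members that passed this filter, 17 (68%) were. Among those with a mean of 0.5 to 5 FPKM, the shares were 72.7% of 22 members and 38.3% of 5149 genes. The spread within groups was wider: the median SD on the log2(FPKM + 0.1) scale was 1.75 for these 22 members and 1.13 for these 5149 genes. Values of 0 widen this SD, so it is not an observation separate from the zeros. Values below are therefore mostly given by library, in the order of replicates 1, 2 and 3 of a group, and otherwise as a range.

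In the alpha cluster, the C-type member Pcdhac2, which is known for spacing the axon branches of serotonergic neurons, had the highest level. It was 4.10, 5.49 and 3.73 FPKM in the 3-month controls, 3.59, 7.67 and 5.28 in the 3-month transgenic mice, 3.47, 3.03 and 5.87 in the 10-month controls and 5.10, 5.00 and 2.43 in the 10-month transgenic mice. Every library expressed it, and all 4 groups overlapped. Of the 5 serotonergic neuron markers, Tph2, Slc6a4 and Slc18a2, which make, take up and store serotonin, were listed at 0 in all 12 libraries, and Fev, their transcription factor, reached at most 0.0429 FPKM. The fifth, the serotonin receptor gene Htr1a, which target neurons express too, was at 2.49 FPKM in 3-month control 2, 2.53 in 3-month transgenic 3 and 1.68, 2.08 and 1.83 in the 10-month transgenic mice, and at 0 in the other 7 libraries (limma, unadjusted p = 0.0178, adjusted p = 0.969 between genotypes at 10 months). Htr1a reached the filter on the group mean through the 10-month transgenic group only. Its presence among the tested genes thus already depended on this difference.

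Pcdhac1, the other C-type member of the cluster, was seen in 5 libraries. It was at 0.714 FPKM in 3-month control 2, 0.473 in 3-month transgenic 3, 0.620 and 0.943 in 10-month controls 1 and 2 and 0.629 in 10-month transgenic 2, and listed at 0 elsewhere. Each group held both detected and undetected libraries.

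Among the 12 alternate alpha members, Pcdha12 led with 0.309, 1.98 and 0 FPKM in the 3-month controls and 1.60, 3.57 and 0.600 in the 3-month transgenic mice. At 10 months it was 1.61, 1.41 and 1.13 FPKM in the controls and 2.19, 1.78 and 0.939 in the transgenic mice. The groups overlapped at both ages. The members next in level stayed low. Pcdha9 ranged from 0 to 1.52 FPKM with a median of 0.577, Pcdha6 from 0.00734 to 1.43 with a median of 0.555, Pcdha5 from 0 to 1.66 with a median of 0.515 and Pcdha4 from 0 to 1.24 with a median of 0.437. The remaining alternate alpha members had means of 0.0440 (Pcdha8) to 0.503 FPKM (Pcdha10). These proteins are recognised by their variable extracellular parts, and the members differ mainly in that part. 3-month transgenic 2 held the highest value of Pcdha12, Pcdha6, Pcdha5 and Pcdhac2 alike.

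Pcdha1, the first gene of the cluster, was detected in the 3-month transgenic libraries only. It was at 0.384, 0.638 and 0.478 FPKM there and listed at 0 in the other 9 libraries. With no group mean of 1 FPKM it was outside the genes tested, and it is named here after its values were seen.

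In the beta cluster, 4 members passed the filter on low values: Pcdhb7, Pcdhb9, Pcdhb14 and Pcdhb20. Beta proteins have a cytoplasmic end of their own, without the constant part of the alpha and gamma proteins, and join the same adhesion complexes. Pcdhb9 had the highest mean of the cluster but was listed at 0 in 8 of the 12 libraries. It was at 0 in all 6 controls, at 0, 3.31 and 3.21 FPKM in the 3-month transgenic mice and at 6.25, 4.57 and 0 FPKM in the 10-month transgenic mice. The 4 libraries with any Pcdhb9 thus all carried the transgenic label, and at each age 1 transgenic library was at 0 like the controls.

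Pcdhb7 was spread over all groups, at 1.10, 1.79 and 0 FPKM in the 3-month controls, 1.38, 1.26 and 1.56 in the 3-month transgenic mice, 0, 0 and 0.510 in the 10-month controls and 1.89, 0 and 1.63 in the 10-month transgenic mice. Pcdhb14 was steadier. Its level was 0.757, 0.880 and 0 FPKM in the 3-month controls, 0, 0.642 and 0.479 in the 3-month transgenic mice, 1.21, 1.14 and 0.837 in the 10-month controls and 1.21, 0.737 and 1.01 in the 10-month transgenic mice. Pcdhb20 passed the filter through 1 library: it was at 3.71 FPKM in 10-month transgenic 3, at 1.30 in 3-month transgenic 2 and at 0 elsewhere.

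Other beta members with a high mean stayed below the filter. Pcdhb11 ranged from 0 to 1.50 FPKM with a median of 0.824, Pcdhb18 from 0 to 1.00 with a median of 0.748 and Pcdhb15 from 0 to 1.90 with a median of 0.673. Pcdhb17 was at 2.96 FPKM in 10-month control 2 and at 0 in the other 11 libraries, and Pcdhb22 was above 0 in 10-month transgenic 3 only. Pcdhb3 was at 0 in all 6 libraries of 10 months and at 1.50, 1.29 and 1.59 FPKM in 3-month controls 1 and 3 and 3-month transgenic 1. These last 3 members are named after their values were seen. High and low values of a beta member thus often lay within the same group.

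The gamma cluster had the highest summed FPKM, above the alpha and beta sums together in every library. Its C-type members made up 38.7% to 58.5% of the cluster's summed FPKM in each library, and the C-type members of the alpha cluster 36.7% to 62.6% of theirs. Pcdhgc5, which binds a subunit of the GABA-A receptor and is expressed late in development, had the highest level of all 59 members. Its level was 22.8, 11.1 and 9.22 FPKM in the 3-month controls and 15.7, 31.7 and 23.0 in the 3-month transgenic mice. At 10 months it was 24.2, 10.6 and 10.3 FPKM in the controls and 24.6, 10.7 and 5.97 in the transgenic mice. In 3 of the 4 groups 1 library stood at 22.8 FPKM or more and the other 2 at 11.1 FPKM or less.

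Pcdhgc3, which promotes dendrite branching and binds Axin1 of the Wnt pathway, was second in level and varied more. It was 10.4, 0.815 and 0.483 FPKM in the 3-month controls, 4.58, 10.9 and 17.7 in the 3-month transgenic mice, 10.7, 0.646 and 6.58 in the 10-month controls and 13.7, 8.54 and 3.40 in the 10-month transgenic mice. The same 5 libraries held the 5 highest values of Pcdhgc5 and of Pcdhgc3: 3-month control 1, 3-month transgenic 2 and 3, 10-month control 1 and 10-month transgenic 1. Pcdhgc4, the member needed for the survival of cortical interneurons, was lower, at 1.65, 1.77 and 1.66 FPKM in the 3-month controls and 2.07, 0 and 3.42 in the 3-month transgenic mice. At 10 months it was 2.87, 1.64 and 0 FPKM in the controls and 2.46, 2.42 and 0.607 in the transgenic mice, with overlap throughout.

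**Figure D2:**
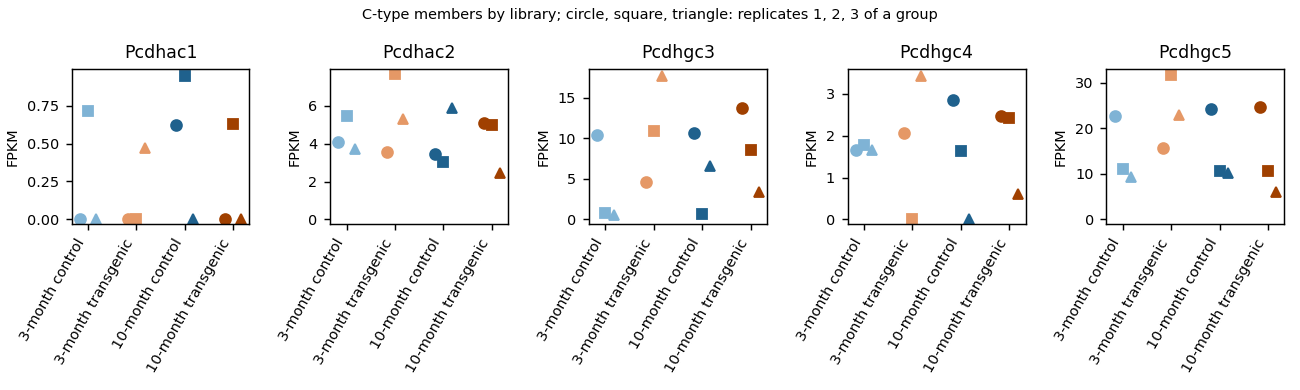
FPKM (vertical, a separate scale for each gene) of the 5 C-type members by group (horizontal), each point a library. Pcdhgc5 reaches 31.7 and Pcdhac1 at most 0.943, and within each gene the 4 groups overlap.

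Of the alternate gamma members, Pcdhga11 had the highest level. It was 1.80, 3.16 and 3.05 FPKM in the 3-month controls and 5.01, 6.89 and 6.58 in the 3-month transgenic mice, so that these groups did not overlap. At 10 months it was 7.59, 3.09 and 3.63 FPKM in the controls and 10.4, 3.73 and 1.26 in the transgenic mice, and the transgenic values lay on both sides of the control values. Pcdhga3 ranged from 0 to 8.25 FPKM (median 2.84), Pcdhga7 from 0 to 4.21 (median 2.06) and Pcdhgb6 from 0.0909 to 6.77 (median 1.37). Each of these 4 members had its highest value in 1 of the 5 libraries with the highest Pcdhgc5 and Pcdhgc3. The level of the A-type members exceeded that of the B-type members in every library, at 8.86 to 42.0 FPKM against 1.34 to 11.0 FPKM summed over each type. Pcdhgb8 was the lowest member of the cluster, above 0 in 1 library under each of its IDs (at most 0.00925 FPKM).

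Summed over all members, the alpha cluster stood at 7.72, 11.4 and 8.16 FPKM in the 3-month controls, 8.10, 20.9 and 9.19 in the 3-month transgenic mice, 8.57, 7.67 and 13.5 in the 10-month controls and 11.2, 11.9 and 4.87 in the 10-month transgenic mice. Group means were 9.11 ± 2.03, 12.7 ± 7.10, 9.92 ± 3.14 and 9.31 ± 3.86 FPKM (SD, n = 3 each) in that order. The beta cluster stood at 8.94, 9.35 and 5.64 FPKM, then 8.02, 11.6 and 9.12, then 10.2, 9.15 and 3.74, and last 13.9, 7.90 and 11.9 in the same order of groups. Its group means were 7.98 ± 2.04, 9.58 ± 1.85, 7.70 ± 3.47 and 11.2 ± 3.07 FPKM (SD, n = 3 each). All groups overlapped in both clusters. A lower sum in bulk tissue could mean fewer expressing cells or less RNA in each, which cannot be told apart here.

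The gamma cluster summed to 62.3, 29.1 and 23.0 FPKM in the 3-month controls, 44.2, 75.4 and 89.2 in the 3-month transgenic mice, 90.8, 33.4 and 34.3 in the 10-month controls and 87.6, 37.0 and 21.0 in the 10-month transgenic mice. Group means were 38.2 ± 21.1, 69.6 ± 23.1, 52.8 ± 32.9 and 48.5 ± 34.8 FPKM (SD, n = 3 each) in that order. The 5 libraries with sums of 62.3 FPKM and more came from all 4 groups, and the difference between libraries of a group was as large as that between groups. The alpha and beta sums did not follow the same order: the highest alpha sum was in 3-month transgenic 2, the highest beta sum in 10-month transgenic 1 and the highest gamma sum in 10-month control 1. 10-month transgenic 3, the library with the most genes far under their usual level, had the lowest alpha and the lowest gamma sum but the second highest beta sum.

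The choroid plexus marker Ttr was highest in 3 of the 5 libraries with high gamma sums. It was at 728 FPKM in 3-month control 1, 300.4 in 3-month transgenic 3 and 439 in 10-month transgenic 1, which also held Gh at 11228 FPKM. The other 2, 3-month transgenic 2 and 10-month control 1, had gamma sums of 75.4 and 90.8 FPKM with Ttr at 25.3 and 29.3 FPKM. Their pituitary marker sums, 53.8 and 19.5 FPKM, were the highest after 10-month transgenic 1 (13419 FPKM), against 0.155 to 12.3 in the remaining 9 libraries. The part of this RNA in the gamma sums was not tested. The neuron marker sum was 2291, 1385, 1438, 2116 and 1932 FPKM in those 5 libraries in the order in which they were first named and 916 to 2153 FPKM in the other 7. The part of cell composition in the sums was not tested.

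**Figure D3:**
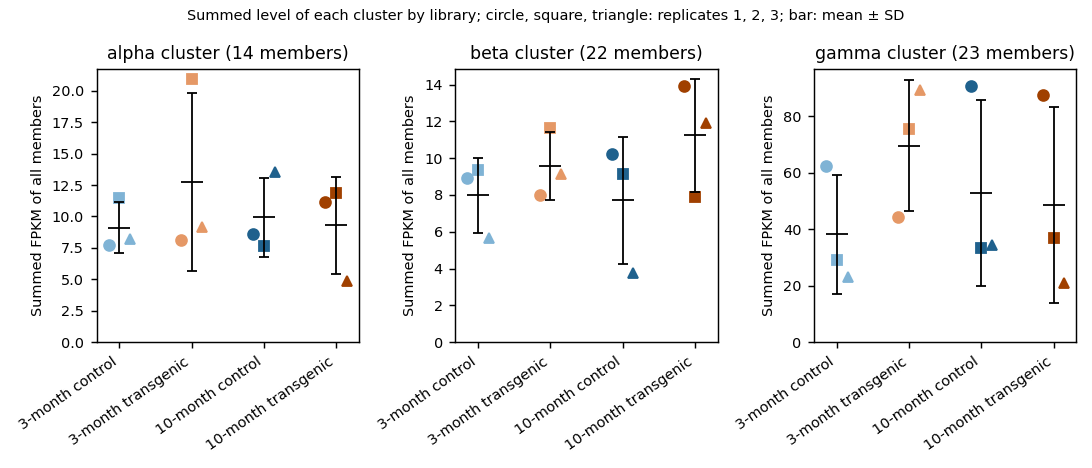
Summed FPKM of all members of the alpha, beta and gamma clusters (vertical, from 0) by group (horizontal); points are libraries and bars the mean with SD of 3 libraries. In the gamma cluster 62.3 to 90.8 FPKM is reached by at least 1 library of every group, and the bars of all groups overlap.

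Transgenic and control mice were compared at each age on log2(FPKM + 0.1) with limma, with p-values adjusted by the Benjamini-Hochberg method over all 9846 genes tested and a threshold of 0.05. At 3 months none of the 25 tested members passed, against 4 genes in all (0.0406%). At an unadjusted p under 0.05 the count was also 0 members, against 334 genes (3.39%). The smallest unadjusted p belonged to Pcdhga2, an alternate gamma member, at 1.22, 0 and 0 FPKM in the controls and 1.68, 0.536 and 4.05 in the transgenic mice. It differed by 2.83 ± 1.34 on the log2 scale (SE, limma, unadjusted p = 0.0613, adjusted p = 1). Pcdhga2 reached the filter on the group mean through the 3-month transgenic group only (mean 2.09 FPKM). Its presence among the tested members thus already depended on this difference. Pcdhgc3, with the values above, differed by 2.45 ± 1.24 (SE, limma, unadjusted p = 0.0759, adjusted p = 1) and Pcdha12 by 1.89 ± 1.01 (SE, limma, unadjusted p = 0.0910, adjusted p = 1). For Pcdhb9, with all controls at 0, limma gave an unadjusted p of 0.0778 (adjusted p = 1). Pcdhb9 too reached the filter on the group mean through transgenic groups only.

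Pcdhga11 was the only tested member whose groups did not overlap at 3 months, with a difference of 1.20 ± 0.65 on the log2 scale (SE, limma, unadjusted p = 0.0925, adjusted p = 1). Non-overlap in either direction was seen in 7.98% of all tested genes at this age. Of the 57 members above 0 in any library, 5 did not overlap, against 5.72% of the 21362 genes above 0. Pcdha1 and Pcdhgb5 were the other 2 that were higher in the transgenic mice, and Pcdhb11 and Pcdhb18 were lower. Pcdhgb5 was at 0.126, 0 and 0.0545 FPKM in the controls and 0.724, 1.26 and 0.218 in the transgenic mice. Pcdhb18 was at 0.959, 1.00 and 0.935 FPKM in the controls and 0.817, 0 and 0 in the transgenic mice. Pcdhb11 lay closer, at 0.863, 0.922 and 1.01 FPKM against 0.785, 0.650 and 0.670. Pcdhgb5 is named after its values were seen.

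Of the 23 gamma members, 16 were higher and 5 lower in mean log2 level in the 3-month transgenic group, with a median difference of 0.49. Over all 21362 genes above 0, 45.6% were higher and 44.3% lower, with a median of 0. The alpha cluster had 7 members in each direction and a median of 0.05, and the beta cluster 8 higher, 10 lower and a median of -0.06. These counts describe the listed values: gamma members share constant exons and libraries, so they do not vary separately.

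At 10 months again none of the 25 tested members passed the threshold, against 1 gene in all (0.0102%). At an unadjusted p under 0.05 the count was 1 member, against 433 genes (4.4%). That member was Pcdhb9, above 0 in 2 of the 3 libraries labelled transgenic and in none of the controls (limma, unadjusted p = 0.0494, adjusted p = 0.969). Pcdhb9 reached the filter on the group mean through the transgenic groups only, so that its presence among the tested members already depended on the difference.

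Pcdhga4, an alternate gamma member, was lower in each library labelled transgenic at 10 months, at 0.647, 0.222 and 0.0841 FPKM against 2.97, 2.43 and 2.24 in the controls. The difference was -2.89 ± 1.49 on the log2 scale (SE, limma, unadjusted p = 0.0817, adjusted p = 0.969). At 3 months the same gene stood at 2.16, 1.23 and 0 FPKM in the controls and 2.85, 0 and 3.56 in the transgenic mice. Pcdhga6 was lower too, at 0, 0.178 and 0 FPKM against 8.00, 0.305 and 0.225, a difference of -2.86 ± 1.69 (SE, limma, unadjusted p = 0.121, adjusted p = 0.969) that drew on 1 high control. Pcdhgb1 was at 1.28, 1.36 and 0.599 FPKM against 1.08, 0.896 and 0, a difference of 1.20 ± 0.90 (SE, limma, unadjusted p = 0.212, adjusted p = 0.969). Pcdhga4 had the largest share of exon bases in common with other members (66.8%), and for Pcdhgb1 it was 54.6%. The part of reads from such shared bases in either difference was not tested. Pcdha12 differed by 0.16 ± 1.01 (SE, limma, unadjusted p = 0.875, adjusted p = 1).

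Pcdhga4 and Pcdhga6 were the 2 tested members whose groups did not overlap at 10 months, 8% of 25 against 8.26% of all tested genes. Over the 57 members above 0 there was also Pcdhb4, at 0.711, 0.657 and 0.627 FPKM in the transgenic mice against 0.477, 0 and 0 in the controls, which makes 3 members against 5.62% of the 21362 genes. Pcdhb4 is named after its values were seen. The gamma cluster had 11 members higher and 12 lower with a median difference of -0.18, the alpha cluster 6 in each direction with a median of 0, and the beta cluster 10 higher and 9 lower with a median of 0.02. Over all genes 46.5% were higher and 43.6% lower.

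**Figure D4:**
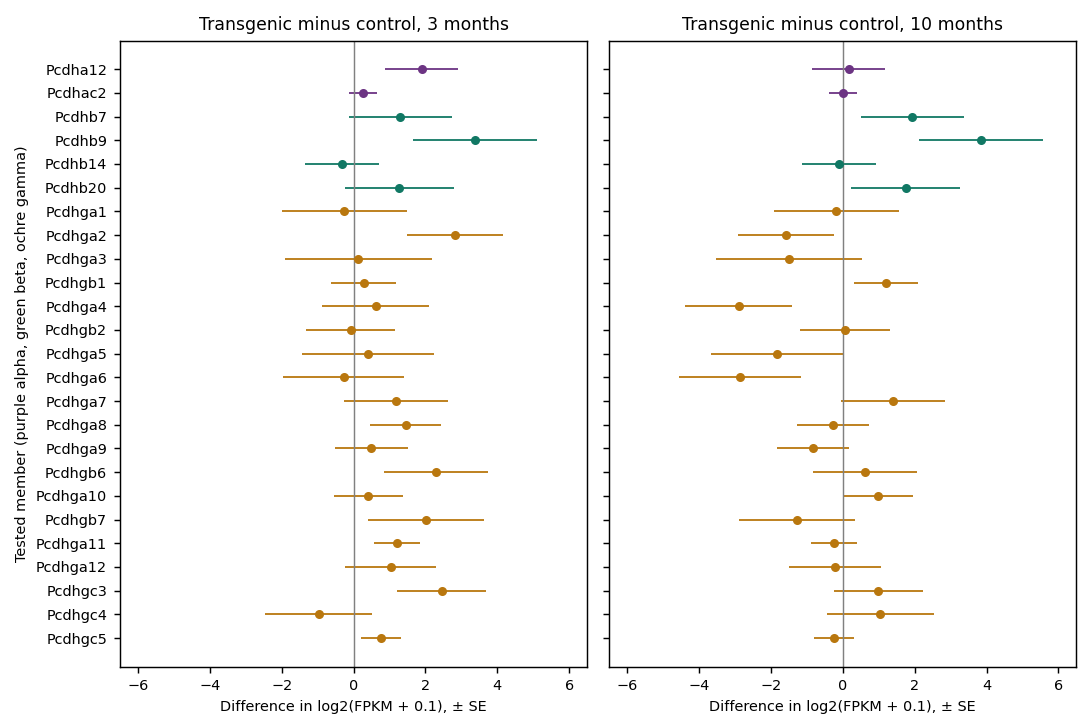
Difference between transgenic and control mice in mean log2(FPKM + 0.1) (horizontal, points with SE) for the 25 tested members (vertical) at 3 and 10 months. No difference passed the threshold, and the lines are long: 2.83 ± 1.34 for Pcdhga2 at 3 months and -2.89 ± 1.49 for Pcdhga4 at 10 months. Values of Pcdhb9 and of other members listed at 0 in a whole group depend on the added 0.1 and are no measure of size.

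Whether the genotype difference changed with age was tested as the interaction, the difference at 10 months minus that at 3 months. None of the 25 tested members passed, against 5 genes in all (0.0508%), and 1 member had an unadjusted p under 0.05, against 327 genes (3.32%). This was Pcdhga2, at 0.357, 0 and 0.0144 FPKM in the 10-month transgenic mice and 1.97, 0.0726 and 0.288 in the 10-month controls, with an interaction of -4.40 ± 1.90 on the log2 scale (SE, limma, unadjusted p = 0.0427, adjusted p = 0.987). Pcdhga2 had passed the filter through the 3-month transgenic group only, and that group enters the interaction. The interaction was -3.51 ± 2.11 for Pcdhga4 (SE, limma, unadjusted p = 0.128, adjusted p = 0.987) and -1.45 ± 0.91 for Pcdhga11 (SE, limma, unadjusted p = 0.143, adjusted p = 0.987). The smallest unadjusted p in the other clusters was 0.255 for Pcdha12 (-1.73 ± 1.43) and 0.757 for Pcdhb7 (0.64 ± 2.02), by the same fit. Pcdhb7 had passed the filter through transgenic groups only, and these enter the interaction. In 14 of the 23 gamma members the interaction was negative, with a median of -1.32, against 49.2% and a median of 0.01 over all genes. It was negative in 9 of the 14 alpha members (median -0.29) and positive in 13 of the 20 beta members above 0 (median 0.47). Here too the gamma counts and median only describe listed values, because the members do not vary separately.

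**Figure D5:**
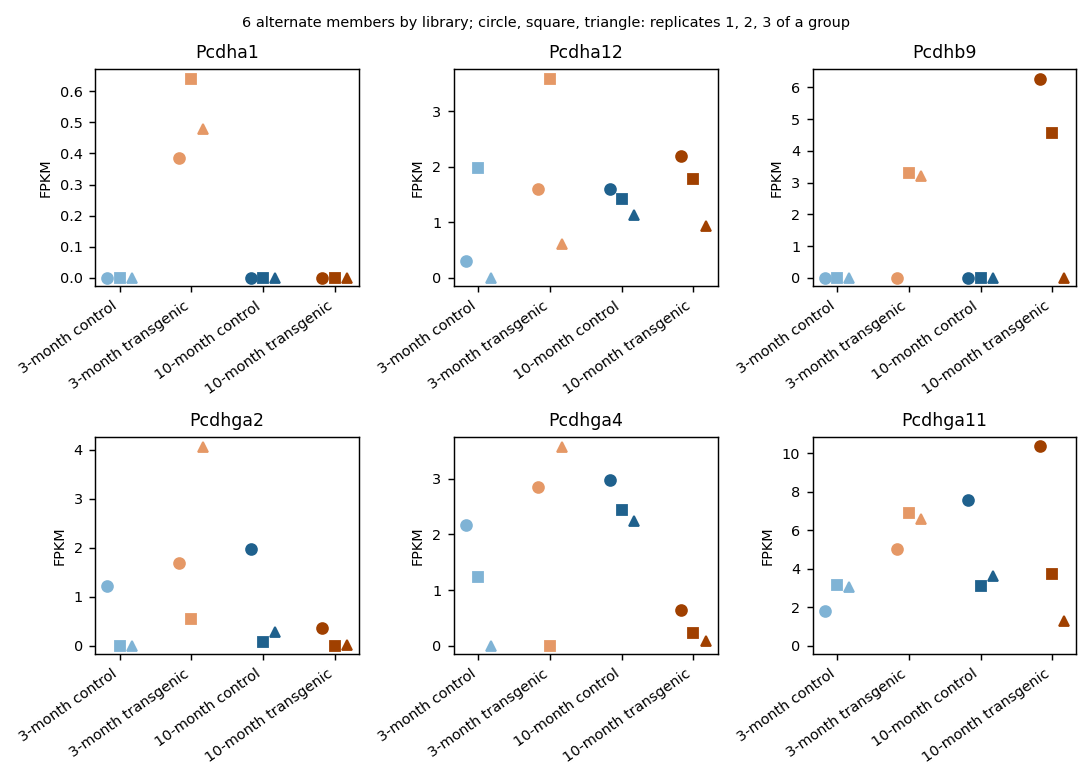
FPKM (vertical, a separate scale for each gene) of 6 alternate members by group (horizontal), each point a library. Pcdha1 is above 0 in the 3-month transgenic group only, Pcdhb9 in 4 transgenic libraries, and Pcdhga4 separates the 10-month groups (0.0841 to 0.647 against 2.24 to 2.97) but not the 3-month groups.

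Pcdha1 was called only when the filter on the group mean was dropped and all 16507 genes above 0 in at least 3 libraries were tested. It then passed at 3 months (limma, adjusted p = 0.00115), where 9 genes were called in all (0.0545%), and in the interaction (limma, adjusted p = 0.0243; 9 genes, 0.0545%). It also passed for age within the transgenic group (limma, adjusted p = 0.00172; 7 genes, 0.0424%). The other 50 members tested in this way did not pass. Pcdha1 was above 0 in no more than the 3 libraries that this setting asked for, all of them 3-month transgenic, so it entered the test through the group in which it was high and had to differ. These p-values describe that selection and support nothing further. For Pcdha1, at 0 in all 9 libraries outside 1 group, 3 of the 4 groups have no spread. The error of its fit therefore comes from the 3 remaining libraries and from other genes. Averages over both ages and over both genotypes were added after the data were seen. Without the mean filter each called Pcdha1 and no other member, against 9 genes for genotype (0.0545%) and 12 genes for age (0.0727%), and 5 and 3 of 51 members had an unadjusted p under 0.05 by limma, against 4.08% and 4.59% of all genes. With the filter they called 0 of 25 members, against 0.0508% and 0.0813% of all genes, and 1 member (Pcdhb9) and 0 members had an unadjusted p under 0.05, against 3.75% and 4.4%. Pcdhb9 had passed the filter through transgenic groups only, the higher groups in the average for genotype.

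Between 3 and 10 months, none of the 25 tested members passed the threshold in the controls, against 3 genes (0.0305%), and none had an unadjusted p under 0.05, against 413 genes (4.19%). Pcdhga8 and Pcdhga4 were the tested members whose groups did not overlap, 8% of 25 against 10.1% of all tested genes. Pcdhga8 was at 0, 1.66 and 1.32 FPKM at 3 months and 3.55, 2.13 and 2.11 at 10 months, a difference of 2.06 ± 0.99 on the log2 scale (SE, limma, unadjusted p = 0.0650, adjusted p = 0.994). Pcdhga4 differed by 1.97 ± 1.49 (SE, limma, unadjusted p = 0.216, adjusted p = 0.994), Pcdha12 by 1.74 ± 1.01 (SE, limma, unadjusted p = 0.116, adjusted p = 0.994) and Pcdhb14 by 1.39 ± 1.02 (SE, limma, unadjusted p = 0.203, adjusted p = 0.994). Pcdhb14 passed the filter through the 10-month controls only (mean 1.06 FPKM), the higher group of this comparison. Pcdhgb1 was lower at 10 months, with a difference of -1.41 ± 0.90 (SE, limma, unadjusted p = 0.146, adjusted p = 0.994).

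In the transgenic mice none of the 25 members passed for age either, against 2 genes (0.0203%), and 1 member had an unadjusted p under 0.05, against 424 genes (4.31%). Pcdhga2 was lower in all 3 libraries of 10 months, with a difference of -3.27 ± 1.34 on the log2 scale (SE, limma, unadjusted p = 0.0349, adjusted p = 0.974). Pcdhb14 was higher in all 3, by 1.61 ± 1.02 (SE, limma, unadjusted p = 0.146, adjusted p = 0.974). These were the 2 tested members without overlap, 8% of 25 against 9.43% of all tested genes. Pcdhgc5 differed by -0.95 ± 0.56 with overlapping groups (SE, limma, unadjusted p = 0.123, adjusted p = 0.974), Pcdhgb7 by -2.65 ± 1.61 (unadjusted p = 0.131, adjusted p = 0.974 by limma) and Pcdhac2 by -0.40 ± 0.40 (unadjusted p = 0.340, adjusted p = 0.974 by limma). Both Pcdhga2 and Pcdhgb7 passed the filter through the 3-month transgenic group only (means of 2.09 and 1.99 FPKM), the higher group here. The gamma cluster had 14 of 23 members higher at 10 months in the controls (median 0.46) and 15 of 23 lower in the transgenic mice (median -0.38). Over all genes above 0, 47.1% were higher in the controls and 42.2% lower in the transgenic mice, with medians of 0. For the alpha cluster these counts were 6 and 8 of 14 members, and for the beta cluster 9 and 8 of 20. As at 3 months, the gamma counts only describe listed values, because the members do not vary separately. The age comparisons use the same libraries as the genotype comparisons.

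The authors' deposited table gives a p-value for 54 members at 10 months and 53 at 3 months. At 10 months 4 members had a p under 0.05 in the authors' deposited table (Pcdha12, Pcdhb9, Pcdhga4 and Pcdhgb2), against 4.14% of all genes with a p. At 3 months these were Pcdha1 and Pcdhga11, against 3.22%. The smallest member q-value in the authors' deposited table was 0.577 at 10 months, for Pcdhga4, and 0.904 at 3 months. At a q-value under 0.05 there were thus 0 members at either age. Over all genes with a p, 1 of 19247 was under 0.05 at 10 months and 3 of 19196 at 3 months.

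Other genes of the same biology were counted from 5 gene lists, and none of their tested genes passed the threshold in any of the 5 comparisons. At 3 months the median log2 difference between genotypes was -0.22 for 5 protocadherins outside the clusters, 0.10 for 12 factors of chromatin and promoter choice at the clusters (CTCF, cohesin and DNA methylation genes among them), -0.13 for 14 signalling partners, -0.26 for 9 classical cadherins and 0.11 for 7 single-copy genes beside the clusters, against 0.02 over all tested genes. At 10 months the same medians were -0.86, -0.08, -0.03, -0.60 and 0.02, against 0.01 over all. Pcdh9, with its zeros in 10-month transgenic 2 and 3, was the only gene of these 5 lists with an unadjusted p under 0.05 between genotypes at 10 months (limma, unadjusted p = 0.00823, adjusted p = 0.969). At 3 months it was Cdh20, a classical cadherin (limma, unadjusted p = 0.0233, adjusted p = 1). In the interaction, Pcdh9 and Hars2, a neighbour of the clusters that encodes a mitochondrial tRNA synthetase, were under 0.05, and in the age comparison within the transgenic group Pcdh9 was again (limma, unadjusted p = 0.0379, 0.0379 and 0.00891, adjusted p = 0.987, 0.987 and 0.974).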

How the data were processed

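The authors deposited FPKM per gene and library, in a separate table for each age. The submitters' processing notes name the aligner HISAT2 2.0.4, SAMtools 0.0.19, the assembler StringTie 1.3.0 and R 3.4.2, with builds mm10 and GRCm38. Settings and gene models were not given in the sources used here. Per the labels' protocols, libraries were strand-specific and made from total RNA after depletion of ribosomal RNA. The authors' tables also hold a fold change (a ratio), its log2 value, p-values and q-values, and per the file headers the test behind them is not stated.

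Members and comparison lists were chosen with earlier results of these data known, and so were the tests. FPKM were analysed as log2(FPKM + 0.1), which understates changes of low genes. A gene was tested when its mean reached 1 FPKM in any group (9846 genes, of which 25 were members) with limma 3.58.1 in R 4.3.3: 4 group means over all 12 libraries, eBayes with trend and robust, and Benjamini-Hochberg adjustment. The fit was tested on simulated data with a normal spread on the log2 scale. These held no values of exactly 0, so they cannot judge the fit for members with such values. Coordinates come from the GENCODE annotation of GRCm38. The relative depth ranged from 1.07 to 1.37 times that of 10-month control 1, from steps seen in at most 11.2% of its low genes. Absolute depths are not known, and no counting intervals are given. Named were the C-type members, the 6 highest members of each cluster by mean, and those with the 3 smallest unadjusted p of a comparison in each cluster. They are given by library or by range and median, and Pcdhgb7 by its fitted difference only. Fitted differences are given for the member with the smallest p in the alpha and beta clusters and the 3 smallest in the gamma cluster. Alternatives were other pseudocounts, filters, scalings and spread estimates, the replicate number as a block, and leaving out libraries. The averages over both ages, the sums without C-type members and the fits without the 3 libraries with the highest choroid plexus marker Ttr were added after the data were seen.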

Additional observations from a re-analysis of the deposited data

Results flagged for a closer look

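Without a filter on the group mean, the interaction of Pcdha1 between genotype and age had a limma adjusted p of 0.0243 over 16507 genes. That setting asked for values above 0 in at least 3 libraries, which Pcdha1 met only through the group in which it was high, so it had to differ and the p supports nothing further. The gene was at 0.384, 0.638 and 0.478 FPKM in the 3-month transgenic libraries and listed at 0 in the 9 other libraries. In the authors' deposited table its p-value at 3 months is 0.00481 with a q-value of 0.904. With the filter at a group mean of 1 FPKM it was not tested, and no other member stood out in this way.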

How the results depend on the processing

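No protocadherin member was called in any of the 5 comparisons under any alternative with a filter at a group mean, the fits without 1 library included; without that filter 1 member, Pcdha1, was called at 3 months, in the interaction and for age in the transgenic mice, and in both added averages, having entered through the 3-month transgenic group alone. The numbers of genes called over all genes were small and moved, given here for genotype at 10 months, genotype at 3 months, interaction, age in controls and age in transgenic mice in that order where all are given. They were 2, 9, 9, 7 and 7 without a mean filter. With a filter at 5 FPKM they were 0 at 10 months, 2 at 3 months, 1 in the interaction and 0 for age in controls. With the replicate number as a block, they were 0 for both genotype comparisons and the interaction, 3 and 2 for age, with 0 members; deviations of libraries with the same number correlated at -0.123 to 0.0256, so the numbers were not taken to pair libraries. Fitting the compared libraries alone gave 0 at 10 months, 12 at 3 months and 5 for age in controls. A pseudocount of 0.01 gave 2 in the interaction, and eBayes without trend and robust 6 for age in transgenic mice. Without the 3 libraries with the highest choroid plexus marker Ttr (the marker libraries) the counts were 4, 10, 3, 4 and 9, with 0 members. Lower pituitary marker levels remained in other libraries. Leaving out each library in turn gave 0 to 8, 4 to 12, 2 to 12, 3 to 10 and 2 to 12 genes. Of 525 refitted differences of named members, 519 kept their direction and stayed above the threshold, with a smallest adjusted p of 0.73 (limma). The other 6 changed sign: Pcdha12 at 10 months was -0.074 without the 3 marker libraries, and ranged from -0.074 (without 10-month transgenic 1) to 0.50 when 1 library was left out, and the interaction of Pcdhb7 was -0.52 without the 3 marker libraries and ranged from -0.17 to 2.05 when 1 library was left out (below 0 without 3-month control 2, 10-month transgenic 1 or 10-month transgenic 3). The log2 ratio of mean beta sums between genotypes was 0.54 at 10 months and 0.26 at 3 months. It was 2.51 and 1.54 over the 4 members with a group mean of at least 1 FPKM. Of these 4, Pcdhb7, Pcdhb9 and Pcdhb20 passed through transgenic groups only, so that this filter itself raises the ratio. Over all beta members but Pcdhb9 the ratio was -0.014 at 10 months. The median over beta members gave no value because it was 0 in some groups. The log2 ratio of mean gamma sums between genotypes at 10 months was -0.12 and ranged from -0.86 to 0.52 when 1 library was left out, at 3 months it was 0.87 with a range of 0.61 to 1.42. The cause was not tested.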
